A study of Rattus norvegicus with 11 samples.

Results

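The matrix metalloproteinases (Mmp), the ADAM and ADAMTS proteases and the tissue inhibitors of metalloproteinases (Timp) were examined in rat dorsal root ganglia after spinal nerve ligation and after ligation with the inhibitor UNC0638. Members were taken by name, as every gene of the deposited table whose symbol is Mmp, Timp, Adamts or Adam followed by a digit. This gave 57 of 16811 genes: 20 Mmp, 20 Adam, 13 Adamts and 4 Timp genes. Adam8, Adam12, Adam22, Mmp24, Mmp25 and Adamts13 were not analysed here.

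RNA of ganglia of Sprague-Dawley rats was sequenced as 11 libraries. In the group SNL plus UNC0638 (n = 3) ganglia were from the left side of ligated rats that received UNC0638, an inhibitor of the histone methyltransferases G9a and GLP. In the group SNL (n = 4) they were from the left side of rats with a spinal nerve ligation, which models neuropathic pain after nerve injury. In the group Sham (n = 4) they were from the right side of sham-operated rats. No group received UNC0638 without ligation. The sources used here do not give the dose, the time after ligation or the vehicle, and the side and the ligation cannot be told apart. Whether each replicate was a separate animal is not in the labels, so that a p-value measures the spread among these libraries only, which may be technical.

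Matrix metalloproteinases are zinc-dependent enzymes that are made as inactive precursors and cleave collagens, basement membrane, proteoglycans and signalling proteins, either after secretion or at the cell surface. TIMPs bind to the active site of these enzymes and block it. ADAMs sit in the membrane and shed the outer domains of cytokines, growth factors and receptors, except for members that lack the catalytic site and act in adhesion, and ADAMTS enzymes are secreted and cleave aggrecan, versican, procollagens and other matrix proteins. After nerve injury in rodents, Mmp9 and Mmp2 are known for opening the blood-nerve barrier, for the entry of macrophages and for pain behaviour.

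Upstream sequences of the Mmp row on chromosome 8 are shown because several share a motif that the choice by name did not use. In the RefSeq annotation of the rat build GRCr8, 10 protein-coding Mmp genes follow each other on chromosome 8 in the order Mmp13, Mmp12, Mmp1b, Mmp3, Mmp1a, Mmp10, Mmp8, Mmp27, Mmp20 and Mmp7, and 9 of them, all but Mmp1b, are in the table. The binding motif of the AP-1 transcription factors Fos and Jun is TGANTCA with C or G at N. The letters searched in the 250 bases before each gene's start were TGANTCA with any base at N, which is wider. They read the same on both strands. They were found in 8 of the 38 members that have a promoter in the RefSeq table (21.1%), against 2122 of 33469 promoters of all genes (6.34%). These 38 are not the same set as the 38 tested members. The other members, among them Mmp2, Mmp9, Mmp14, Mmp16, Mmp17 and Mmp19, were not searched. The 8 were Adam19, Mmp10, Mmp12, Mmp13, Mmp1a, Mmp20, Mmp3 and Mmp7, of which 7 lie in the row on chromosome 8. The only match of Mmp20 and 1 of the 2 of Mmp1a read TGAATCA, with A at N, and are not the AP-1 motif. A match is a description of the letters and not evidence of binding. Capitals mark the motif in the following stretches of 57 bases on the plus strand of GRCr8, from chr8:12782738-12782794 (Mmp13), chr8:12866540-12866596 (Mmp12), chr8:12925185-12925241 (Mmp3), chr8:12974621-12974677 (Mmp10) and chr8:13132938-13132994 (Mmp7).
Mmp13: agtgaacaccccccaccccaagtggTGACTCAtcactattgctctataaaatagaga
Mmp12: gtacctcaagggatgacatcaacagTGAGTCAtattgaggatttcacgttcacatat
Mmp3: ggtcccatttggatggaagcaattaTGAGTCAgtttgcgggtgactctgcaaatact
Mmp10: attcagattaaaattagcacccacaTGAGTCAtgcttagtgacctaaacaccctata
Mmp7: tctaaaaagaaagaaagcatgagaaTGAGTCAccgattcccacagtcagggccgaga
The motif begins 66 bases before the start of Mmp13, 87 before that of Mmp12, 71 before that of Mmp3, 61 before that of Mmp10 and 80 before that of Mmp7. These 5 genes did not share a pattern in the libraries: Mmp3, Mmp12 and Mmp7 had higher values in SNL than in Sham libraries, Mmp13 did not pass the test and Mmp10 was at 0 in all 11 libraries.

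The deposited values, called scaled counts here, are read counts per gene after the authors' scaling of all libraries to a like size. They summed to 9450045 to 11347920 per library, and the reads behind them, estimated from the step between low values, numbered 6127896 to 24367778. A gene was tested where it had at least 10 scaled counts in at least 3 libraries, which left 12064 genes and 38 members; the other 19 members are described last. A Benjamini-Hochberg adjusted p under 0.05 over all tested genes, by limma on log2(scaled count + 1), is what calls a gene higher or lower. Because of the added 1, a log2 fold change understates that of a gene with few counts, whereas fold values are ratios of group means. All 8 measured sensory neuron markers, which define the ganglion, were above 0 in every library. Some libraries stood apart. In replicate 1 of SNL plus UNC0638, 10 skeletal muscle markers summed to 77295, against 168 to 246 in replicates 2 and 3 of that group, 148 to 547 in SNL and 174 to 205 in Sham libraries, and it lay at -9.05 on the first principal component, against 41.1 and 44.1 for replicates 2 and 3. Replicate 3 of Sham held the highest Sham value for 21 of the 38 tested members, a share not counted over all genes. Replicate 3 of SNL deviated from its group like replicate 3 of Sham did (r = 0.43 between these deviations, computed over genes that are no independent replicates). Its deviations correlated as much with those of replicate 1 of SNL plus UNC0638 (r = 0.43).

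**Figure D1:**
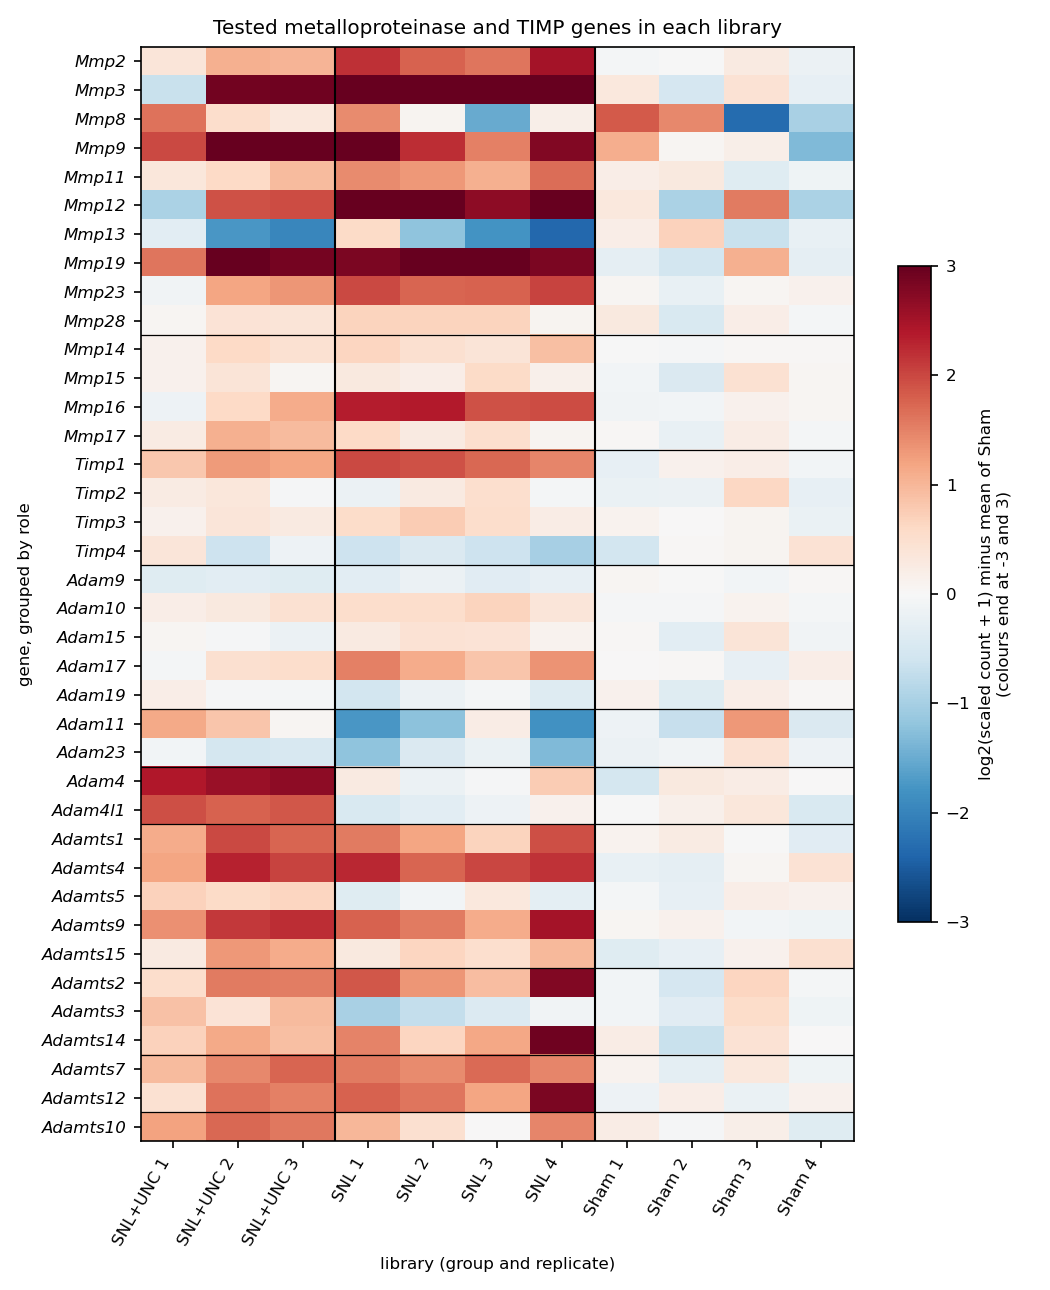
Each row is 1 of the 38 tested members, grouped by role, and each column is 1 library; colour gives log2(scaled count + 1) minus the Sham mean of that gene, ending at -3 and 3. Most secreted Mmp and Adamts genes are above Sham in all 4 SNL libraries, replicate 1 of SNL plus UNC0638 is lower than the other two of its group for the members that rose after ligation, and Adam4 and Adam4l1 are far above Sham in the UNC0638 libraries and near it in the SNL libraries.

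The first comparison, of SNL with Sham, asks what ligation changed in the ganglion. Most of these genes were higher after ligation: secreted and membrane-bound matrix metalloproteinases, ADAMTS enzymes, the inhibitor genes Timp1 and Timp3 and the sheddase genes Adam17 and Adam10 rose, and only Adam9 and Adam23 fell. Of the 38 tested members, 23 were called (60.5%), against 48.2% of all genes. In the direction of higher values these were 21 members (55.3%), against 24.8% of all genes, and in that of lower values 2 members (5.26%), against 23.4%. The median log2 fold change was 0.60 over the tested members and -0.00 over all tested genes. Libraries of the groups did not overlap for 22 members, 20 higher and 2 lower (57.9%), against 43.3% of all genes. Without replicate 3 of Sham 25 members were called, 24 higher and 1 lower, and without replicate 3 of both groups 26, with 23 higher and 3 lower. As these are bulk samples, more cells of a type and more RNA per cell cannot be told apart.

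Among the secreted matrix metalloproteinases 7 of 10 tested genes rose, none fell and 3 were not called, with a median log2 fold change of 1.95. Of these, Mmp12 reached 10 scaled counts only in SNL libraries. Mmp3 did so in SNL libraries and in replicates 2 and 3 of SNL plus UNC0638, too few for the filter without SNL. Both were thus tested because they were high in SNL, which limits their weight in the counts of called members. Mmp2, the gelatinase that cleaves type IV collagen and chondroitin sulphate proteoglycans, had 1960.2, 1465, 1312 and 2427 scaled counts in SNL libraries, against 413, 425, 517 and 383 in Sham libraries. Every SNL library was above every Sham library, and the SNL mean was 4.12 times the Sham mean (log2 fold change 2.01, SE 0.21, adjusted p = 0.000104). Mmp3, or stromelysin 1, which cleaves proteoglycans and activates other Mmp precursors, stood at 73.4, 81.0, 46.6 and 90.3 in SNL libraries and at 2.78, 1.14, 3.12 and 1.54 in Sham libraries. It was close to absent in Sham, at few reads per library, and high in all 4 SNL libraries (log2 fold change 4.56, SE 0.68, adjusted p = 0.000329). Mmp19, a stromelysin-like enzyme of broad specificity, had 373, 447, 448 and 371 in SNL libraries and 43.1, 35.2, 111 and 43.0 in Sham libraries. The groups did not overlap, although replicate 3 of Sham was well above the other Sham libraries (log2 fold change 2.95, SE 0.36, adjusted p = 0.000145).

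Mmp23, an enzyme that is released from the cell surface by cleavage within itself, had 115, 97.7, 99.1 and 118 scaled counts in SNL libraries and 29.2, 23.9, 29.6 and 30.7 in Sham libraries. Both groups were tight and far apart (log2 fold change 1.88, SE 0.28, adjusted p = 0.00032). Mmp9, the second gelatinase and a product of macrophages and neutrophils among other cells, had 65.8, 28.7, 17.3 and 42.9 in SNL libraries and 12.5, 5.68, 6.23 and 1.54 in Sham libraries. It rose, with values that varied several-fold within each group (log2 fold change 2.48, SE 0.57, adjusted p = 0.00389). Mmp11, which is activated inside the cell by furin, averaged 96.3 ± 17.5 in SNL libraries, against 36.8 ± 7.56 in Sham libraries (SD, n = 4 each; adjusted p = 0.000453). Mmp12, the macrophage elastase, had 36.7, 23.1, 11.3 and 26.4 in SNL libraries, whereas 2 of the 4 Sham libraries were at 0 and the others at 1.39 and 4.67 (log2 fold change 3.62, SE 0.75, adjusted p = 0.00217). The collagenase genes Mmp8 and Mmp13 did not pass the test. Mmp13 had 27.3, 7.29, 4.51 and 2.74 in SNL libraries and 20.9, 29.5, 10.9 and 15.4 in Sham libraries (log2 fold change -1.19, adjusted p = 0.124); without replicate 1 of SNL, the highest of its group, it was called lower (log2 fold change -1.78, adjusted p = 0.0171). Mmp8, the neutrophil collagenase, had 0.751 to 12.2 in SNL libraries and 0 to 16.7 in Sham libraries (adjusted p = 0.972). Mmp28, or epilysin, had 97.6 to 148 in SNL libraries and 67.0 to 114 in Sham libraries (adjusted p = 0.0505), and was called higher without replicates 1 or 3 of Sham or 4 of SNL (adjusted p = 0.0394, 0.038 and 0.0197).

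Of the membrane-type enzymes Mmp16 and Mmp14 rose and Mmp15 and Mmp17 were not called. Mmp16, also MT3-MMP, had 882, 905, 647 and 667 scaled counts in SNL libraries and 160.0, 161, 189 and 179 in Sham libraries. Every SNL library was far above every Sham library (log2 fold change 2.15, SE 0.23, adjusted p = 0.000104). Mmp14, or MT1-MMP, the surface collagenase that activates the precursor of Mmp2, had 1685, 1501, 1412 and 2025 in SNL libraries and 1069.8, 1049, 1111 and 1104 in Sham libraries. Its change was smaller, with no overlap between the groups (log2 fold change 0.60, SE 0.13, adjusted p = 0.00352). Mmp15, also MT2-MMP, was called higher without replicate 3 of Sham (log2 fold change 0.46, adjusted p = 0.022), against 0.30 over all libraries (adjusted p = 0.168).

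The 4 inhibitor genes differed among themselves. Timp1, the inducible inhibitor, had the smallest p of all members, at 1084, 1039, 903 and 763 scaled counts in SNL libraries and 232, 299.9, 315 and 257 in Sham libraries. The SNL mean of 948 ± 145 was 3.43 times the Sham mean of 276 ± 38.0 (SD, n = 4 each; log2 fold change 1.77, SE 0.15, adjusted p = 0.000103). Timp3, which is bound to the matrix and also blocks Adam17 and several ADAMTS enzymes, had 3830.0, 4373, 3748 and 3019.8 in SNL libraries and 2786, 2605, 2749 and 2279.6 in Sham libraries. Every SNL library was above every Sham library, by a smaller factor than for Timp1 (log2 fold change 0.51, SE 0.13, adjusted p = 0.00612). Timp2, which takes part in the activation of Mmp2 at the cell surface, had 3575, 4862, 5652 and 3884 in SNL libraries and 3488, 3555, 6186 and 3381 in Sham libraries, with no call (log2 fold change 0.14, SE 0.21, adjusted p = 0.606). Replicate 3 was the highest library of both groups. Timp4 had 54.6, 61.7, 54.8 and 42.0 in SNL libraries and 57.0, 86.3, 88.8 and 115 in Sham libraries and missed the threshold with values mostly lower in SNL (log2 fold change -0.66, SE 0.26, adjusted p = 0.0502). It was called lower without replicate 1 of Sham or replicates 1 or 2 of SNL plus UNC0638 (adjusted p = 0.0205, 0.0347 and 0.0376).

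In RefSeq GRCr8 3 of these inhibitor genes overlap a synapsin gene, which codes for a protein of neuronal synaptic vesicles, and the sources used here do not say if counting used the strand, which means that reads of such pairs may not be told apart. Syn1, on the strand opposite to Timp1, averaged 105 ± 69.8 scaled counts in SNL and 148 ± 81.1 in Sham libraries (adjusted p = 0.304). Syn3, which overlaps Timp3, averaged 134 ± 41.3 in SNL and 146 ± 32.0 in Sham libraries (adjusted p = 0.593). Syn2, opposite to Timp4, averaged 1443 ± 486 in SNL and 2267 ± 411 in Sham libraries and fell (log2 fold change -0.70, SE 0.23, adjusted p = 0.0254). Chchd10, opposite to Mmp11, fell with a log2 fold change of -1.52 (adjusted p = 0.000231).

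Of the 9 tested ADAM genes 2 rose, 2 fell and 5 were not called. Adam17, the enzyme that releases tumour necrosis factor and ligands of the EGF receptor, had 2301, 1748, 1436 and 2059 scaled counts in SNL libraries and 819, 824, 681 and 928 in Sham libraries. The groups did not overlap and the SNL mean was 2.32 times the Sham mean (log2 fold change 1.20, SE 0.18, adjusted p = 0.000302). Adam10, the sheddase of Notch and of many neuronal surface proteins, had 2755, 2779, 3066 and 2484 in SNL libraries and 1888, 1872, 2080.2 and 1848 in Sham libraries. This smaller rise was still free of overlap (log2 fold change 0.52, SE 0.10, adjusted p = 0.00172). Adam9 averaged 1767 ± 97.6 in SNL and 2131 ± 79.2 in Sham libraries (SD, n = 4 each) and fell by a small amount (log2 fold change -0.27, SE 0.09, adjusted p = 0.0234); the call was lost with upper-quartile scaling (adjusted p = 0.115), with the estimated reads (adjusted p = 0.158) and without replicates 1 or 4 of Sham or 1 or 3 of SNL (adjusted p 0.0631 to 0.0664). Adam15 (0.31, adjusted p = 0.0994) and Adam19 (-0.30, adjusted p = 0.118), given as log2 fold changes, were not called. Without replicate 3 of Sham Adam15 was called higher (0.44, adjusted p = 0.0108), and without replicate 2 of Sham Adam19 was called lower (-0.42, adjusted p = 0.0327).

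Adam23 and Adam11 lack the catalytic site and bind LGI proteins at neuronal membranes. Adam23 had 2383, 4082, 4821 and 2201 scaled counts in SNL libraries and 4902, 5117, 7493 and 4936 in Sham libraries. The SNL libraries were all below the Sham libraries, but the groups were separated by little (log2 fold change -0.79, SE 0.25, adjusted p = 0.0219). This call was lost without replicate 3 of Sham or replicates 1 or 4 of SNL (adjusted p 0.0516 to 0.0675). Adam11 had 248, 357, 979.9 and 237 in SNL libraries and 758, 517, 2059.9 and 623 in Sham libraries. In both groups replicate 3 was the highest by a wide margin, the groups overlapped and the gene was not called (log2 fold change -1.15, SE 0.50, adjusted p = 0.0756). It was called lower without replicate 3 of SNL (log2 fold change -1.61, adjusted p = 0.00812) and without replicate 3 of both groups (-1.18, adjusted p = 0.00301), but not without replicate 3 of Sham alone (-0.72, adjusted p = 0.191). The sum of 8 sensory neuron markers was 101440 to 163690 in SNL libraries, against 289990 to 356380 in Sham libraries, with 7 of the 8 genes called lower; its part in the values of Adam23 and Adam11 was not tested.

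Of the 11 tested ADAMTS genes 8 rose, none fell and 3 were not called, with a median log2 fold change of 1.53. Among the proteoglycanases, which cleave aggrecan and versican, Adamts1, Adamts4 and Adamts9 rose and Adamts5 and Adamts15 were not called. Adamts4 had 261, 183, 219 and 244 scaled counts in SNL libraries and 45.9, 44.3, 56.1 and 72.2 in Sham libraries, with no overlap (log2 fold change 2.05, SE 0.24, adjusted p = 0.000129). Adamts9 had 765, 658, 484 and 1268 in SNL libraries and 235, 247, 212 and 205 in Sham libraries. The Sham libraries were close to each other, while the SNL libraries spread widely above them (log2 fold change 1.73, SE 0.26, adjusted p = 0.000373). Adamts1 had 1473, 1135, 791 and 1915 in SNL libraries and 538, 591, 497 and 395 in Sham libraries, again without overlap (log2 fold change 1.33, SE 0.26, adjusted p = 0.00166). Adamts5, the main aggrecanase of mouse cartilage, had 457, 554, 731 and 478 in SNL libraries and 556, 489, 675 and 634 in Sham libraries, and the groups overlapped (log2 fold change -0.10, SE 0.15, adjusted p = 0.62). Adamts15, at a log2 fold change of 0.60 (adjusted p = 0.0583), was called higher without replicate 4 of Sham (adjusted p = 0.0307) or replicate 1 of SNL plus UNC0638 (adjusted p = 0.0248).

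Adamts7, which cleaves cartilage oligomeric matrix protein, had 301, 270.1, 329.6 and 283 scaled counts in SNL libraries and 109, 82.9, 126 and 92.2 in Sham libraries, with no overlap (log2 fold change 1.53, SE 0.18, adjusted p = 0.000134). Its close relative Adamts12 averaged 932 ± 504 in SNL and 237 ± 32.8 in Sham libraries (SD, n = 4 each; log2 fold change 1.85, SE 0.33, adjusted p = 0.000968). The procollagen N-proteinases Adamts2 (adjusted p = 0.00351) and Adamts14 (adjusted p = 0.00927) rose with SNL means 3.58 and 3.46 times the Sham means. For Adamts2, Adamts12 and Adamts14 replicate 4 of SNL was the highest library, at 1577, 1669 and 407 scaled counts. The remaining procollagen enzyme, Adamts3, had 37.6, 45.0, 56.3 and 70.2 in SNL libraries and 70.9, 59.1, 111 and 68.4 in Sham libraries and was not called (log2 fold change -0.55, SE 0.25, adjusted p = 0.0825), except without replicate 4 of SNL, where it was lower (log2 fold change -0.70, adjusted p = 0.0431). Adamts10, a fibrillin-binding member, had 477, 331, 239 and 658 in SNL libraries and 275, 232, 268 and 184 in Sham libraries; it was called with overlapping groups (log2 fold change 0.74, SE 0.27, adjusted p = 0.0403), a call that was lost without replicates 1, 2 or 4 of Sham, 1 or 4 of SNL or 3 of SNL plus UNC0638 (adjusted p 0.0513 to 0.111).

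Markers of some other cells were also higher after ligation. Summed over 8 fibroblast markers, SNL libraries 1 to 4 held 140720, 107420, 95004 and 245880 scaled counts and Sham libraries 26457 to 37797, and all 8 markers were called higher. Replicate 4, with the highest fibroblast sum, was also the highest SNL library for 11 of the 21 members that rose. The share of all risen genes with this order was not counted. Summed over 9 macrophage markers, SNL libraries held 4993 to 7169, against 1134 to 2719 in Sham libraries, with 8 of the 9 called higher. The sum of 5 endothelial markers was 1419 to 1797 in SNL libraries and 779 to 1016 in Sham libraries, and 1 of these 5 was at 0 in all libraries. The 6 Schwann cell markers summed to 57272 to 83562 in SNL libraries and 58882 to 67915 in Sham libraries. The part of these cells in the rise of the protease genes was not tested.

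**Figure D2:**
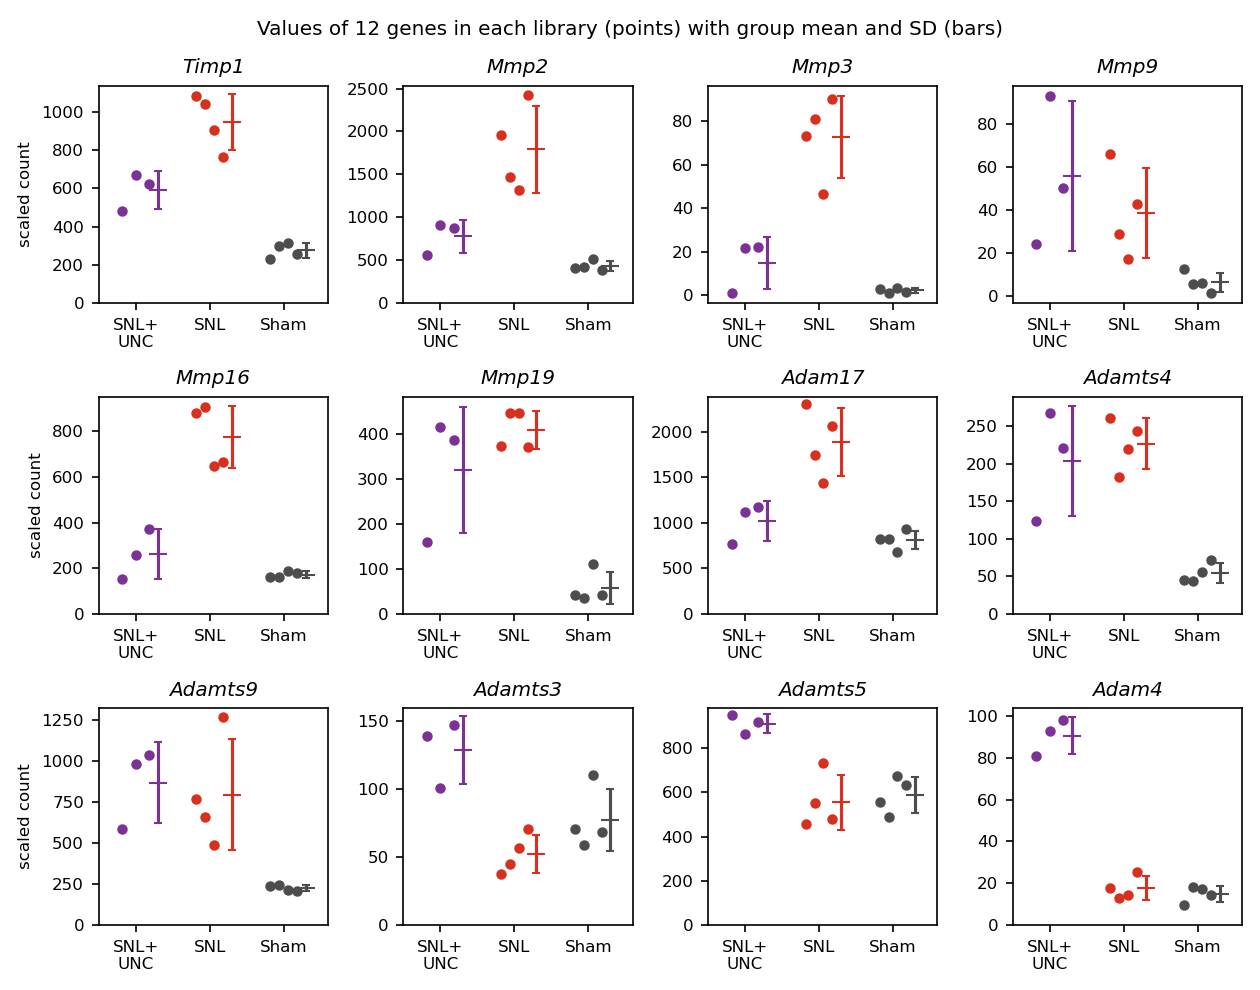
Scaled counts of 12 members in each library (points), with the group mean (horizontal mark) and SD (vertical bar) for SNL plus UNC0638 (n = 3), SNL (n = 4) and Sham (n = 4). Timp1, Mmp2, Mmp3, Mmp16 and Adam17 lie lower in UNC0638 than in SNL libraries, Mmp9, Mmp19, Adamts4 and Adamts9 overlap between these groups, and Adamts3, Adamts5 and Adam4 lie higher.

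The second comparison set SNL plus UNC0638 against SNL, and asks what differed once ligated rats had received the inhibitor. The called members lay in both directions: 6 matrix metalloproteinase genes, Timp1 and Adam17 were lower with UNC0638, whereas no ADAMTS gene was lower and Adamts3, Adamts5, Adam11, Adam4 and Adam4l1 were higher. In all 13 of 38 members were called (34.2%), against 27.8% of all genes. The 8 lower ones made up 21.1%, against 14.3% of all genes, and the 5 higher ones 13.2%, against 13.5%. The median log2 fold change was -0.15 over the tested members and 0.01 over all genes. Groups did not overlap for 13 members (34.2%), against 37.6% of all genes, among them 4 higher, against 17.8% of all genes, and 9 lower, against 19.8%. In this comparison the count of members was near the background. Without replicate 1 of SNL plus UNC0638 11 members were called, 6 lower and 5 higher, and without replicate 3 of Sham and SNL 15, 8 lower and 7 higher. The share of all genes called in these fits is not given here.

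With UNC0638 5 of the 10 secreted and 1 of the 4 membrane-type metalloproteinase genes were lower, and none was higher. Mmp3 and Mmp12, among the 5, passed the filter only through their SNL libraries. Mmp16 had 154, 259.9 and 373 scaled counts in SNL plus UNC0638 libraries, against 647 to 905 in SNL libraries. All 3 were below every SNL library, and their mean was 0.338 times the SNL mean (log2 fold change -1.63, SE 0.24, adjusted p = 0.0013). Mmp2 had 554, 908 and 872 in SNL plus UNC0638 libraries, against 1312 to 2427 in SNL libraries, with a mean of 0.434 times that of SNL and no overlap (log2 fold change -1.19, SE 0.23, adjusted p = 0.00375). Mmp3 had 0.897, 21.7 and 21.9 in SNL plus UNC0638 libraries, against 46.6 to 90.3 in SNL libraries (log2 fold change -2.85, SE 0.73, adjusted p = 0.0153). Replicate 1 was at 1 read; without it the log2 fold change was -1.65 (adjusted p = 0.0147), and without replicate 2 or 3 it was -3.44 or -3.45.

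Mmp23 had 26.0, 65.0 and 72.2 scaled counts in SNL plus UNC0638 libraries, against 97.7 to 118 in SNL libraries (log2 fold change -1.09, SE 0.30, adjusted p = 0.021); without replicate 1 of SNL plus UNC0638 the log2 fold change was -0.63 (adjusted p = 0.0445), and the call was lost without replicates 1 or 4 of SNL (adjusted p 0.0503 to 0.0542). Mmp12 had 0, 6.19 and 6.45 in SNL plus UNC0638 libraries, against 11.3 to 36.7 in SNL libraries (log2 fold change -2.64, SE 0.81, adjusted p = 0.0307). Without replicate 1 of SNL plus UNC0638 its log2 fold change was -1.68 (adjusted p = 0.113), and the call was also lost without replicates 1, 2 or 4 of SNL, the lowest such adjusted p being 0.0662. Mmp11 had 45.7, 55.7 and 70.9 in SNL plus UNC0638 libraries, against 76.6 to 119 in SNL libraries (log2 fold change -0.74, SE 0.23, adjusted p = 0.0353), a call lost without replicates 1 or 2 of SNL plus UNC0638 or 1, 2 or 4 of SNL (adjusted p 0.0682 to 0.119) and with the estimated reads (adjusted p = 0.0568). Mmp9 and Mmp19, which had risen after ligation, were not called. Mmp9 had 24.2, 92.8 and 50.3 in SNL plus UNC0638 libraries and 17.3 to 65.8 in SNL libraries, with overlap (log2 fold change 0.48, SE 0.61, adjusted p = 0.57). Mmp19 had 159.6, 416 and 387 in SNL plus UNC0638 libraries and 371 to 448 in SNL libraries, of which replicate 1 alone was far below SNL (log2 fold change -0.47, SE 0.39, adjusted p = 0.381). Mmp14 had 1181, 1637 and 1494 in SNL plus UNC0638 libraries and 1412 to 2025 in SNL libraries (log2 fold change -0.20, SE 0.14, adjusted p = 0.302). Mmp17 was not called (log2 fold change 0.39, SE 0.20, adjusted p = 0.154), but was higher without replicate 1 of SNL plus UNC0638 (log2 fold change 0.64, adjusted p = 0.0249).

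Of the 4 inhibitor genes Timp1 was called, with 479.8, 669.9 and 620.5 scaled counts in SNL plus UNC0638 libraries, against 763 to 1084 in SNL libraries. All 3 libraries lay below SNL, at a mean of 590.1 ± 98.6 (SD, n = 3), 0.623 times that of SNL (log2 fold change -0.68, SE 0.17, adjusted p = 0.0117). Timp2 had 4747, 5104 and 3887 in SNL plus UNC0638 libraries and 3575 to 5652 in SNL libraries (log2 fold change 0.04, SE 0.23, adjusted p = 0.899). Timp3 had 2857, 3354 and 3113 in SNL plus UNC0638 libraries and 3019.8 to 4373 in SNL libraries (log2 fold change -0.26, SE 0.14, adjusted p = 0.173). Timp4 had 109, 54.1 and 76.1 in SNL plus UNC0638 libraries and 42.0 to 61.7 in SNL libraries (log2 fold change 0.53, SE 0.28, adjusted p = 0.165). The last 3 genes overlapped between the groups.

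Adam17 had 770.4, 1125 and 1171 scaled counts in SNL plus UNC0638 libraries, against 1436 to 2301 in SNL libraries. All 3 were below every SNL library (log2 fold change -0.89, SE 0.19, adjusted p = 0.00662). Adam10 had 2205, 2338 and 2652 in SNL plus UNC0638 libraries and 2484 to 3066 in SNL libraries, with overlap (log2 fold change -0.21, SE 0.11, adjusted p = 0.178). Adam23 had 5229, 3810.4 and 3929 in SNL plus UNC0638 libraries and 2201 to 4821 in SNL libraries, also with overlap (log2 fold change 0.42, SE 0.27, adjusted p = 0.251). Adam11 had 1866, 1493 and 882 in SNL plus UNC0638 libraries and 248, 357, 979.9 and 237 in SNL libraries and was called higher although the groups overlapped (log2 fold change 1.83, SE 0.54, adjusted p = 0.0272). This call was lost without replicates 1 or 2 of SNL plus UNC0638 or 1, 2 or 4 of SNL (adjusted p 0.0593 to 0.0905). Adam15 was called lower in this comparison only without replicate 3 of Sham among the fits that left out 1 library (log2 fold change -0.36, adjusted p = 0.0373).

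The members with the smallest p in this comparison were Adam4 and Adam4l1, of a group of ADAM genes known from the testis of rodents. Adam4 had 80.7, 92.8 and 98.0 scaled counts in SNL plus UNC0638 libraries, against 17.9, 12.9, 14.3 and 25.5 in SNL libraries (log2 fold change 2.34, SE 0.29, adjusted p = 0.000578). Adam4l1 had 72.6, 65.0 and 69.7 in SNL plus UNC0638 libraries, against 13.2, 14.6, 16.5 and 20.1 in SNL libraries (log2 fold change 2.05, SE 0.25, adjusted p = 0.000528). For both genes the 3 UNC0638 libraries were close together and each was above every other library, replicate 1 included. As near copies of each other they may share reads, and both overlap Cox16 on the same strand in RefSeq GRCr8. Cox16 averaged 186 ± 12.8 in SNL plus UNC0638, 171 ± 16.1 in SNL and 174 ± 12.2 in Sham libraries and was not called in any comparison (adjusted p 0.497 to 0.886).

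Of the ADAMTS genes 2 of 11 were higher, and neither had risen after ligation alone. Adamts3 had 139, 100.6 and 147 scaled counts in SNL plus UNC0638 libraries, against 37.6, 45.0, 56.3 and 70.2 in SNL libraries, with no overlap (log2 fold change 1.30, SE 0.27, adjusted p = 0.00525). Adamts5 had 949.8, 863 and 919.8 in SNL plus UNC0638 libraries, against 457 to 731 in SNL libraries, again with no overlap (log2 fold change 0.74, SE 0.17, adjusted p = 0.00846). Adamts4 had 124, 268 and 221 in SNL plus UNC0638 libraries and 183 to 261 in SNL libraries (log2 fold change -0.21, SE 0.26, adjusted p = 0.559). Adamts1 had 1082, 1960.2 and 1668 in SNL plus UNC0638 libraries and 791 to 1915 in SNL libraries (log2 fold change 0.27, SE 0.28, adjusted p = 0.483). Adamts9 had 584, 982 and 1036 in SNL plus UNC0638 libraries and 484 to 1268 in SNL libraries (log2 fold change 0.17, SE 0.28, adjusted p = 0.663). For these 3 genes the groups overlapped. The other 6 tested ADAMTS genes were not called either, with log2 fold changes between -0.66 for Adamts12 and 0.76 for Adamts10; without replicate 4 of SNL Adamts10 was called higher (1.00, adjusted p = 0.0193).

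**Figure D3:**
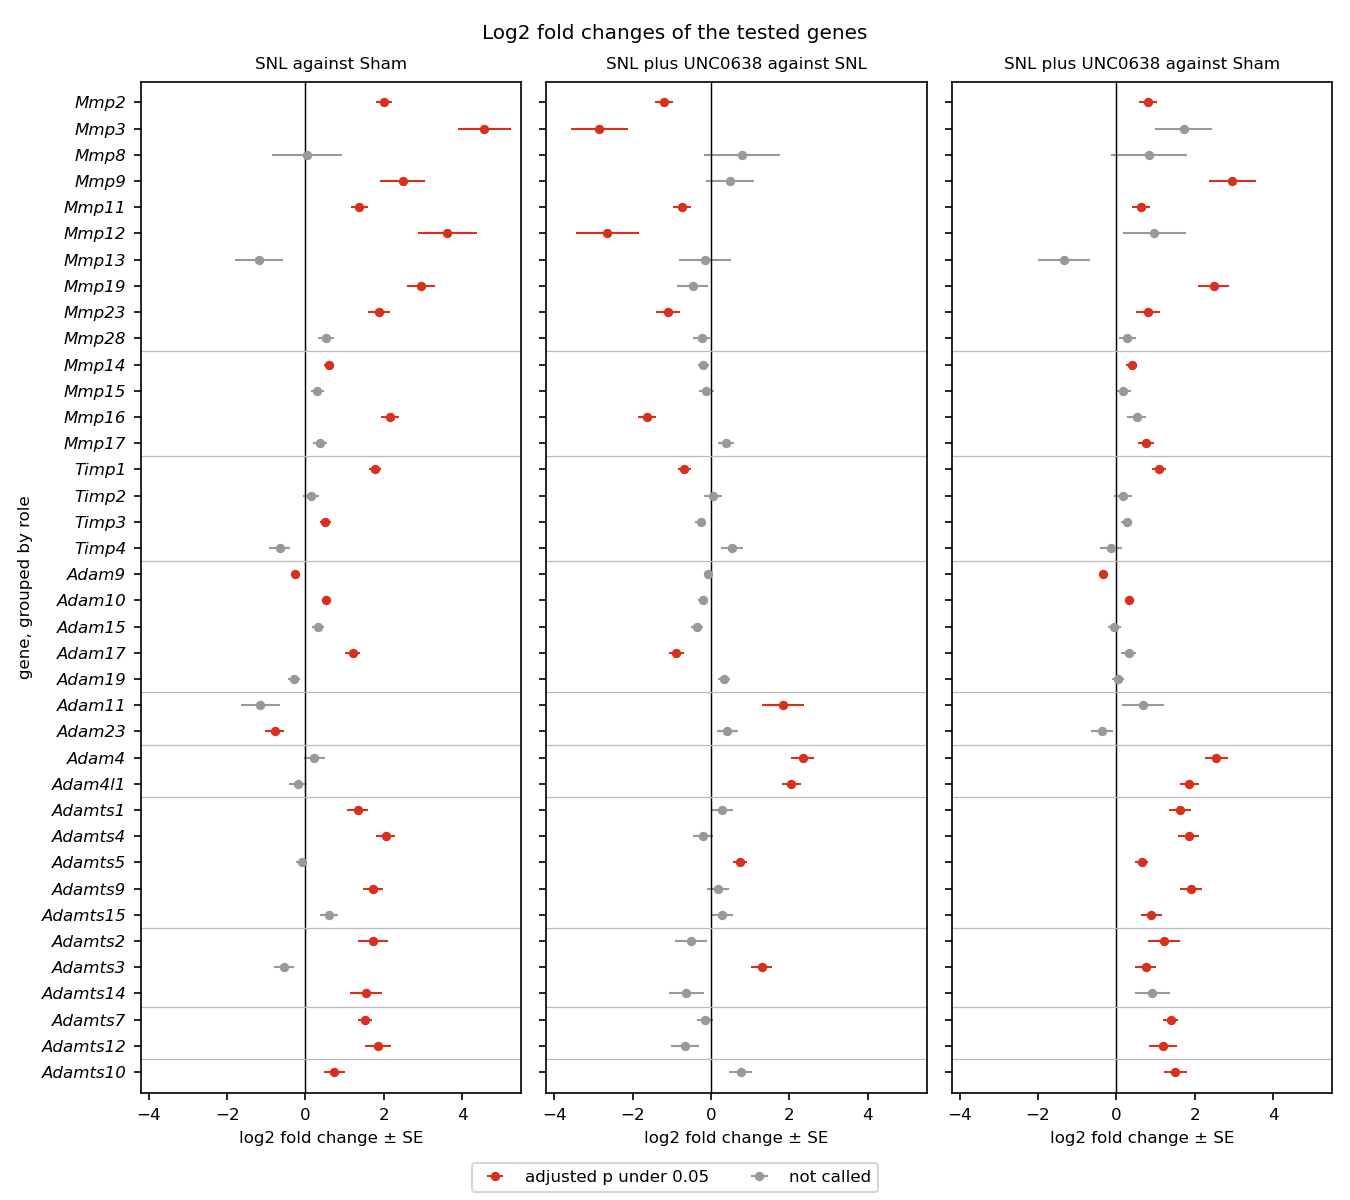
Log2 fold change (point) and SE (bar) of the 38 tested members, grouped by role, in SNL against Sham (left), SNL plus UNC0638 against SNL (middle) and SNL plus UNC0638 against Sham (right); red marks an adjusted p under 0.05. Mmp16 is at 2.15 in the left and -1.63 in the middle panel, and Adamts9 at 1.73 and 0.17; the panels share groups of libraries.

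Marker genes of other cells went in different directions in this comparison. The 3 SNL plus UNC0638 libraries held 44570, 115350 and 91846 scaled counts over 8 fibroblast markers, against 95004 to 245880 in SNL libraries, and 3 of the 8 were called lower. The 9 macrophage markers summed to 4111, 7732 and 6959 in SNL plus UNC0638 libraries, against 4993 to 7169 in SNL libraries, with 1 called higher and none lower. The 10 neutrophil markers summed to 457, 535 and 632 in SNL plus UNC0638 libraries, against 91.7 to 213 in SNL and 49.2 to 255 in Sham libraries. Of the 10, 5 were tested and 2, Lcn2 and Cxcr2, were called higher. Cxcr2 passed the filter only through its UNC0638 libraries, which limits the weight of its call. In SNL plus UNC0638 libraries Lcn2 had 231 to 356, S100a9 106 to 152, S100a8 65.0 to 70.0 and Cxcr2 21.7 to 34.8 scaled counts. In SNL libraries Lcn2 had 20.1 to 88.6, S100a9 13.5 to 78.1, S100a8 11.3 to 48.9 and Cxcr2 1.50 to 12.2. Sham libraries had 26.1 to 48.7 for Lcn2, 5.38 to 82.1 for S100a9 and for S100a8, and 0 to 3.12 for Cxcr2. S100a9 and S100a8 were not called against SNL (adjusted p = 0.0738 and 0.139). The other 6 were low in all libraries, with at most 23.6 for Ngp, 12.5 for Camp, 5.38 for Prtn3, 4.64 for Elane, 3.09 for Mpo and 3.00 for Ltf, the last at 0 in all Sham libraries. In replicate 1 of SNL plus UNC0638, which held the muscle markers, Adam17, Mmp16 and Mmp2 stood at 770.4, 154 and 554 scaled counts. There all 21 members that had risen after ligation had their lowest value of the 3 UNC0638 libraries. The share of all risen genes with this order was not counted. This library also stood apart over all tested genes, at -9.05 on the first principal component, against 41.1 and 44.1 for replicates 2 and 3. The part of muscle, fibroblasts and other cells in these differences was not tested.

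The values of replicate 1 were set beside those of the other two libraries for the 21 members that were higher in SNL than in Sham. Replicate 1 was below every SNL library for 16 of them, replicate 2 for 9 and replicate 3 for 8. Above every Sham library were replicate 1 for 15 of the 21, replicate 2 for 21 and replicate 3 for 21. As the 21 were chosen by their SNL and Sham libraries, these counts compare only the 3 UNC0638 libraries with each other. The same was not counted over all genes, so whether the counts are particular to these members is not known.

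SNL plus UNC0638 was compared with Sham to show how far these ganglia stood from the sham state. Nearly all tested ADAMTS genes, 10 of 11, were higher, as were 7 of 14 matrix metalloproteinase genes, Timp1, Adam10 and the pair Adam4 and Adam4l1, and Adam9 was lower. In all 22 of 38 members were called (57.9%), against 51.5% of all genes. Higher were 21 members (55.3%), against 25.5% of all genes, and lower 1 (2.63%), against 25.9%. The median log2 fold change was 0.77 over the tested members and -0.01 over all genes, and the groups did not overlap for 20 members (52.6%), against 48.4% of all genes. Without replicate 1 of SNL plus UNC0638 26 members were called, 24 higher and 2 lower, without replicate 2 of that group 14 and without its replicate 3 13. These counts stand without the share of all genes called in the same fits. This comparison shares the Sham libraries with the first and the UNC0638 libraries with the second.

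**Figure D4:**
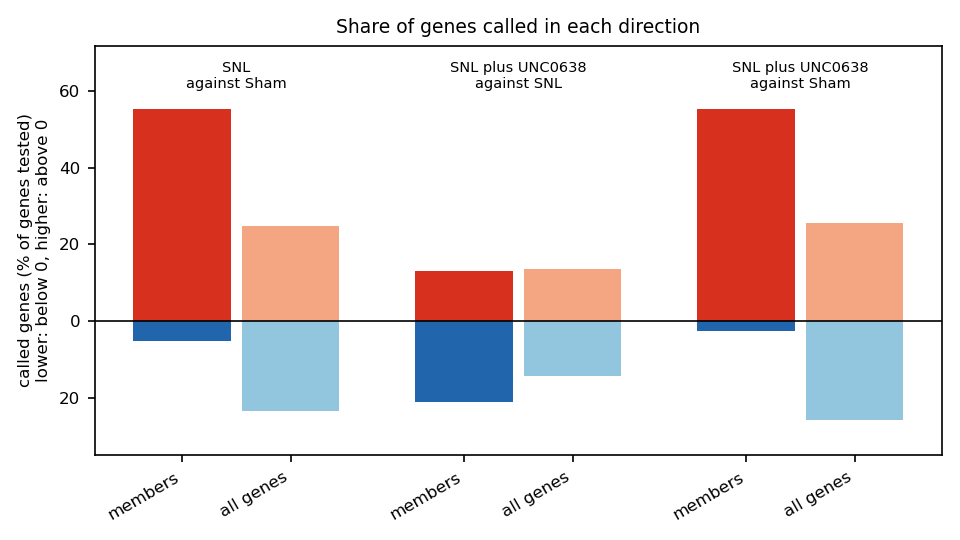
Share of genes called higher (red bars, above 0) and lower (blue bars, below 0) in each comparison, in percent of the 38 tested members (dark bars) and of all 12064 tested genes (pale bars). Members called higher make up 55.3% in SNL against Sham, 13.2% in SNL plus UNC0638 against SNL and 55.3% in SNL plus UNC0638 against Sham, and all genes called higher 24.8%, 13.5% and 25.5%.

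Adam4, with 80.7, 92.8 and 98.0 scaled counts in SNL plus UNC0638 and 9.74, 18.2, 17.1 and 14.6 in Sham libraries, had the smallest p (log2 fold change 2.55, SE 0.29, adjusted p = 0.000116), followed by Adam4l1, with 18.1, 20.4, 23.4 and 13.1 in Sham libraries (log2 fold change 1.86, SE 0.25, adjusted p = 0.00025). All 5 tested proteoglycanases were higher. Adamts4 stood at 3.73 times the Sham mean (log2 fold change 1.84, SE 0.26, adjusted p = 0.000299), with 124, 268 and 221 scaled counts in SNL plus UNC0638 libraries and 45.9, 44.3, 56.1 and 72.2 in Sham libraries. Adamts7, of the enzymes that cleave cartilage oligomeric matrix protein, had 196, 277 and 342 in SNL plus UNC0638 libraries and 109, 82.9, 126 and 92.2 in Sham libraries, 2.65 times the Sham mean (log2 fold change 1.38, SE 0.20, adjusted p = 0.000314). For both, every SNL plus UNC0638 library was above every Sham library. Adamts9 (log2 fold change 1.90, SE 0.28, adjusted p = 0.000394), Adamts1 (log2 fold change 1.61, SE 0.28, adjusted p = 0.000912) and Adamts5 (log2 fold change 0.64, SE 0.17, adjusted p = 0.00759) were likewise higher without overlap.

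Adamts10 was higher (log2 fold change 1.50, SE 0.29, adjusted p = 0.00157), and so were Adamts3, Adamts15, Adamts12 and Adamts2, with log2 fold changes of 0.75, 0.89, 1.19 and 1.21. Without replicate 2 or 3 of SNL plus UNC0638 the calls of Adamts12 (adjusted p 0.067 to 0.0777) and Adamts15 (0.0621 to 0.0774) were lost. Those of Adamts2 (0.0603 to 0.115) were lost without either of these or without replicates 1, 2 or 4 of Sham, and those of Adamts3 (0.0689 to 0.117) without replicates 1 or 3 of SNL plus UNC0638 or 1, 2 or 4 of Sham. Adamts14 was not called (log2 fold change 0.92, adjusted p = 0.105), except without replicate 4 of SNL (adjusted p = 0.0201).

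Among the matrix metalloproteinases Mmp9 was 8.59 times the Sham mean (log2 fold change 2.96, SE 0.61, adjusted p = 0.00216), and Mmp19 5.53 times (log2 fold change 2.48, SE 0.39, adjusted p = 0.000499). Mmp17, the membrane-type enzyme held by a lipid anchor, was called in this comparison, with 309, 539.9 and 501 scaled counts in SNL plus UNC0638 libraries, against 267, 223, 304 and 248 in Sham libraries (log2 fold change 0.75, SE 0.20, adjusted p = 0.00838). It had not been called in SNL against Sham, at 390.3, 312, 365 and 274 in SNL libraries (adjusted p = 0.128). Mmp2 was higher than in Sham libraries (log2 fold change 0.81, SE 0.23, adjusted p = 0.0108), a call lost without replicates 2 or 3 of SNL plus UNC0638 (adjusted p 0.0508 to 0.0558). Mmp14 (log2 fold change 0.39, SE 0.14, adjusted p = 0.0386) and Mmp11 (log2 fold change 0.63, SE 0.23, adjusted p = 0.0404) each lost their call without replicates 2 or 3 of SNL plus UNC0638 or any of several SNL or Sham libraries, namely replicates 1, 2 or 4 of Sham and 1 of SNL for Mmp14 (adjusted p 0.0506 to 0.161) and 3 or 4 of Sham and 1 or 2 of SNL for Mmp11 (0.0537 to 0.166). The call of Mmp23 (log2 fold change 0.80, SE 0.30, adjusted p = 0.0442) was lost in 10 of the 11 fits that left out 1 library (adjusted p 0.051 to 0.201), whereas without replicate 1 of SNL plus UNC0638 its log2 fold change was 1.25 (adjusted p = 0.000549), and without replicate 3 it was 0.53. Mmp16 (log2 fold change 0.52, SE 0.24, adjusted p = 0.0958) and Mmp3 (log2 fold change 1.72, SE 0.73, adjusted p = 0.0686) were not called. Both were higher than in Sham without replicate 1 of SNL plus UNC0638, Mmp16 by 0.85 (adjusted p = 0.00362) and Mmp3 by 2.91 (adjusted p = 0.000198) on the log2 scale. The same held for Mmp12 (1.93, adjusted p = 0.0412, against 0.97 over all libraries), while Mmp13 was called lower without replicate 1 of either SNL plus UNC0638 (-1.86, adjusted p = 0.0446) or SNL (-1.34, adjusted p = 0.0457).

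Timp1 stayed above Sham, with a mean 2.14 times that of Sham libraries and no overlap (log2 fold change 1.09, SE 0.17, adjusted p = 0.000412). Timp2 (log2 fold change 0.18, SE 0.23, adjusted p = 0.522), Timp3 (log2 fold change 0.26, SE 0.14, adjusted p = 0.138) and Timp4 (log2 fold change -0.13, SE 0.28, adjusted p = 0.709) were not called. Adam17 (log2 fold change 0.31, SE 0.19, adjusted p = 0.184) and Adam23 (log2 fold change -0.37, SE 0.27, adjusted p = 0.273) were not called either, but Adam17 was higher without replicate 1 of SNL plus UNC0638 (0.51, adjusted p = 0.0402). Adam10 was 1.25 times the Sham mean (log2 fold change 0.32, SE 0.11, adjusted p = 0.0336), a call lost without replicates 1, 2 or 4 of Sham or 2 or 3 of SNL plus UNC0638 (adjusted p 0.0659 to 0.14). Adam9 had 1656, 1702 and 1669 scaled counts in SNL plus UNC0638 libraries and 2202, 2121, 2024 and 2178 in Sham libraries and was lower (log2 fold change -0.35, SE 0.09, adjusted p = 0.00978), but not with upper-quartile scaling (adjusted p = 0.0531) or with the estimated reads (adjusted p = 0.228).

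Over the 3 comparisons, with all libraries, 30 of the 38 tested members were called at least once. The 8 that were not are Timp2, Timp4, the membrane-type Mmp15, the secreted Mmp8, Mmp13 and Mmp28 and the proteases Adam15 and Adam19. Several of these were abundant: Adam19 had 2646 to 3144 scaled counts in SNL plus UNC0638, 1869 to 2646 in SNL and 2146 to 3141 in Sham libraries, and Mmp15 had 2361 to 2944 in SNL plus UNC0638, 2520.0 to 3381 in SNL and 1693 to 3118 in Sham libraries. A missed threshold does not show that their levels were alike.

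Substrates, partners and regulators of these enzymes were counted in a list of 52 genes that are no members, of which 41 were in the table and 38 were tested. In SNL against Sham 17 of the 38 were higher, against 24.8% of all genes, and 6 lower, against 23.4%. Their median log2 fold change was 0.54. In SNL plus UNC0638 against SNL 7 were higher, against 13.5% of all genes, and 4 lower, against 14.3%, which is near the background. In SNL plus UNC0638 against Sham 15 were higher, against 25.5% of all genes, and 6 lower, against 25.9%. Tnf, among the 7 and the 15 higher genes, passed the filter only through its UNC0638 libraries. The protease inhibitor gene A2m, whose protein traps metalloproteinases in the blood, had 5532, 5532, 4369 and 4550.2 scaled counts in SNL libraries and 917, 992, 1413 and 1102 in Sham libraries (log2 fold change 2.19, SE 0.23, adjusted p = 0.000104). Vcan, the gene of versican and a substrate of the ADAMTS proteoglycanases, had 595, 579.6, 483 and 1216 in SNL libraries and 72.3, 67.0, 111 and 82.2 in Sham libraries, with no overlap (log2 fold change 3.03, SE 0.41, adjusted p = 0.000211). Of the plasmin system, which activates Mmp precursors, the urokinase gene Plau rose (log2 fold change 1.36, SE 0.20, adjusted p = 0.000271). Sparc, a matrix protein of collagen assembly, rose after ligation (log2 fold change 0.81, SE 0.12, adjusted p = 0.000348) and was lower in SNL plus UNC0638 than in SNL libraries (log2 fold change -0.54, SE 0.13, adjusted p = 0.0118). Spock3, a neural proteoglycan, had 82.8, 106, 188 and 132 in SNL libraries, against 1249, 1444, 589 and 1084 in Sham libraries, and fell (log2 fold change -3.08, SE 0.33, adjusted p = 0.000107).

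The LGI genes code for the ligands of Adam11, Adam22 and Adam23. Lgi1 had 277, 339.5, 441 and 256 scaled counts in SNL libraries, against 929, 824, 721 and 908 in Sham libraries, and fell (log2 fold change -1.39, SE 0.20, adjusted p = 0.000252). Lgi3 had 749, 1071, 2019 and 644 in SNL libraries, against 3729.7, 4052, 5222 and 4211 in Sham libraries, and fell as well (log2 fold change -2.08, SE 0.32, adjusted p = 0.000433). Both were higher in SNL plus UNC0638 than in SNL libraries, with log2 fold changes of 0.74 (adjusted p = 0.0236) and 1.01 (adjusted p = 0.0495). Lgi4, the form that Schwann cells release for myelination, moved otherwise: it was higher in SNL than in Sham (log2 fold change 0.95, SE 0.20, adjusted p = 0.00255) and higher again in SNL plus UNC0638 than in SNL libraries (log2 fold change 0.68, SE 0.22, adjusted p = 0.0368). Lgi2 was not called in any comparison (adjusted p 0.245 to 0.672).

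The 19 members that were not tested had at most 18.6 scaled counts in any library. Adam2, Adam26a, Adam34 and Mmp10 were at 0 in all 11 libraries, and the other 15 were above 0 in at least 1. The 15 were the ADAM genes Adam1a, Adam28, Adam30, Adam32, Adam3a, Adam5, Adam6 and Adam7, the ADAMTS genes Adamts18 and Adamts19 and the secreted enzymes Mmp1a, Mmp7, Mmp20, Mmp21 and Mmp27. Mmp7, or matrilysin, had 0, 1.55 and 3.87 in SNL plus UNC0638 libraries, 8.47, 2.57, 4.51 and 7.30 in SNL libraries and 0 in all Sham libraries. A count of 0 allows up to 3 reads, which are 2.31 to 4.67 scaled counts in the Sham libraries, so that the SNL values of 2 libraries lay above the limit of every Sham library. Such limits cover counting error only.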

How the data were processed

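Libraries were made, per the labels' protocols, from total RNA extracted with either Trizol or RNeasy, with a stranded kit that depletes ribosomal RNA, and were read from a single end over 50 bases; the sources used here do not say which library received which reagent. Reads were aligned to the rat build rn4 with TopHat2 2.0.9, and Cuffdiff 2.1.1 is named, per the submitters' processing notes. The deposited table holds a signal per gene, a read count that the authors had divided by a library factor, and no raw counts. Low values were whole multiples of 1 step per library, in 98.9% to 99.2% of cases within 0.01 steps. This step, 0.429 to 1.56 by library, was taken as 1 read. The sources used here do not give the annotation, the use of strand or the treatment of reads shared by genes. Intervals and limits of a count of 0 (3 reads) cover counting error only.

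Of 16811 genes, 24 with names altered to dates and 2 at 0 in every library of 1 group and high elsewhere (Sdc2 and Pcdhgc5) were left out, and 1970 were at 0 throughout. limma 3.58.1 (R 4.3.3, statmod 1.5.0; trend and robust eBayes) was fitted to log2(value + 1) over the 12064 genes that reached 10 in at least 3 libraries, with 1 mean per group over all 11 libraries. Tests were two-sided, with Benjamini-Hochberg adjustment over all tested genes and calls under 0.05. Within groups the spread between replicates was 5.78 to 77.2 times what counting noise of the estimated reads gives. Principal components of these genes held 53.8% (first) and 26.5% (second) of the variance.

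Members were found by symbol, 56 as current RefSeq symbols and 1, Mmp1a, as a synonym of Mmp1. ADAM genes were classed with or without a protease site from general knowledge, as no protein sequences were used here. Values in every library were given for the 10, 6 and 4 called members with the smallest p in the 3 comparisons and, throughout, for Timp1 to Timp4, Mmp2, Mmp9, Mmp14, Adam10, Adam17, Adam23, Adamts1, Adamts4 and Adamts5. From the list of partners the 8 called genes with the smallest p after ligation and Lgi1 to Lgi4 were named, of which 1 is not reported here; any other gene was named after its values were seen. The members and all lists were chosen with earlier results of these data known. Promoters and gene overlaps are from RefSeq GRCr8, a later build than that of the data, and were joined by symbol (Python 3.11.15, pandas 2.3.3). Alternatives were 2 other scalings, 2 other filters, 2 other pseudocounts, eBayes without robust estimates, only the compared groups, the replicate number as a block and each library left out in turn; chosen after seeing the data were limma-voom on the estimated reads and the fits without the libraries that stood apart.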

Additional observations from a re-analysis of the deposited data

Results flagged for a closer look

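In 7 of 76 sets of 4 libraries (38 genes in SNL and in Sham), 1 library lay far from the other three by Dixon's test, and chance gives about 1 in 20. In the SNL group Adam11 had 979.9 scaled counts in replicate 3, against 237 to 357 in the others, and Mmp28 had 97.6 in replicate 4, against 146 to 148. The other 5 were in replicate 3 of Sham. There Adam10 had 2080.2 scaled counts, against 1848 to 1888 in the other Sham libraries. Adam11 had 2059.9, against 517 to 758. Adam23 had 7493, against 4902 to 5117. Mmp19 had 111, against 35.2 to 43.1. Timp2 had 6186, against 3381 to 3555. What sets this library apart was not tested.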

How the results depend on the processing

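Over 23 alternatives, with 874 values of tested members per comparison, no value called with or without the change of setting changed its sign; 7, 17 and 12 values that were called in neither did. The counts of called members, 23 for ligation, 13 for UNC0638 set against SNL and 22 for UNC0638 set against Sham, ranged over 21 to 25, 9 to 14 and 13 to 26 with 1 library left out, and over 22 to 28, 9 to 16 and 20 to 29 in the other alternatives. Calls were kept in every alternative for 20 of 23, 9 of 13 and 12 of 22 members. SNL plus UNC0638 against Sham depended most on its own replicates 2 and 3, with 14 and 13 members called without them, against 26 without replicate 1. Each of these fits also made the group smaller. The cause was not tested. Deviations of same-numbered libraries correlated by -0.45 to 0.43 and those of others by -0.35 to 0.43. These ranges show no pairing by replicate number. They cannot exclude it, as the deviations within a small group depend on each other. With the replicate number as a block 22, 9 and 21 members were called. With limma-voom on the estimated reads 25, 14 and 21 were called, and the median of all genes moved to 0.09, 0.10 and 0.18. The planned quasi-likelihood count test was not run, as the values could not all be turned into whole reads. Depth limits the 19 members that were not tested.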

Other observations

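Some members below the filter had their highest values with UNC0638. Adam30, known from the testis, had 8.97, 12.4 and 15.5 scaled counts in SNL plus UNC0638 libraries, 0.941, 2.14, 4.51 and 6.38 in SNL libraries and 1.39, 0, 0 and 1.54 in Sham libraries. Adam1a had 16.1, 18.6 and 7.74 in SNL plus UNC0638 libraries, 1.88, 5.14, 4.51 and 5.47 in SNL libraries and 2.78, 0, 4.67 and 4.61 in Sham libraries. Mmp21 had 7.17, 6.19 and 5.16 in SNL plus UNC0638 libraries, 0.941, 0, 0 and 1.82 in SNL libraries and 0 in all Sham libraries. In each of these 3 genes every UNC0638 library was above every other library. The share of all genes with this order was not counted. Adam32 had 4.48, 10.8 and 6.45 in SNL plus UNC0638 libraries, 2.82, 3.86, 2.25 and 0.912 in SNL libraries and 2.78, 3.41, 4.67 and 2.31 in Sham libraries.

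When limma was fitted with no filter, Adam30 (adjusted p = 0.0315), Adam32 (adjusted p = 0.0359) and Mmp21 (adjusted p = 0.00226) were called higher in SNL plus UNC0638 than in SNL, and Adam1a (adjusted p = 0.0125), Adam30 (adjusted p = 0.000799) and Mmp21 (adjusted p = 0.000234) higher than in Sham. In SNL against Sham the same fit called Mmp7 (adjusted p = 0.00088) and Adam30 (adjusted p = 0.0406) higher. There it called 39.3% of all genes, in either direction. Its shares in the other comparisons are not given here. The values of these members are a few reads per library, and these genes were named after their values were seen.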
